A study of Mus musculus with 9 samples.

Results

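The genes described here are 10 that carry out or govern steroid synthesis in the intestine, chosen by name around Hsd3b3, a gene picked because its level was already known to be low 18 h after the treatment. Of the 10, 9 were found in the count table, and these 9 passed the filter on low counts and were among the 18933 genes tested of 29288 in the table. Cyp11b1, which encodes the steroid 11-beta-hydroxylase, was not analysed here. The members were followed in RNA of sorted crypt cells from 9 wild-type female C57BL/6J mice, young adults, 1 mouse a library. The control group (3 mice) received PBS by injection into the peritoneum and was sampled at 18 h. The 18h-αGal and 72h-αGal groups (3 mice each) were given αGalCer (α-galactosylceramide, 2 µg) by the same route and were sampled at 18 h and 72 h. αGalCer is a lipid antigen of natural killer T (NKT) cells, which recognise it on CD1d and respond with cytokines. All 9 libraries were made from live EpCAM+ CD45- CD31- Ter119- cells of the proximal small intestine, so they average over all epithelial cell types in the sort. No control was sampled at 72 h, and treatment and time of sampling cannot be told apart in the 72h-αGal group.

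Steroid hormones are made from cholesterol. Cyp11a1 cleaves the cholesterol side chain in the mitochondrion to give pregnenolone, the 3-beta-hydroxysteroid dehydrogenases (the Hsd3b genes) turn pregnenolone into progesterone, and hydroxylases such as Cyp11b1 finish corticosterone, the main glucocorticoid of the mouse. The crypt epithelium is known as a site of glucocorticoid synthesis outside the adrenal gland, where the nuclear receptor Nr5a2 (LRH-1) drives the synthetic enzymes and Nr0b2 (SHP) restrains Nr5a2. Hsd11b2 and Hsd17b2 oxidise active steroids to weaker ones, Hsd17b4 is a peroxisomal enzyme that also serves fatty acid oxidation, and Nr3c1 is the glucocorticoid receptor through which corticosterone acts.

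Hsd3b3 and Hsd3b2 are neighbours on the minus strand of chromosome 3 (GRCm38.p6, RefSeq, chr3:98741476-98764540 and chr3:98711107-98724543), and each encodes a protein of 373 residues. Their coding sequences of 1122 bases were 95.1% identical, with 55 differing positions and a longest identical run of 228 bases, which is longer than a read of 100 bases. Reads from such a run cannot be assigned to either gene by sequence. The stretch in which they differed most, coding bases 568 to 687 with 16 differences, is shown from the GENCODE transcripts because reads over it can tell the genes apart; capitals mark the differing bases.
Hsd3b3: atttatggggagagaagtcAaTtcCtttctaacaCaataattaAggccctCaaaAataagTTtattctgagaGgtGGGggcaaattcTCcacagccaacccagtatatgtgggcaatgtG
Hsd3b2: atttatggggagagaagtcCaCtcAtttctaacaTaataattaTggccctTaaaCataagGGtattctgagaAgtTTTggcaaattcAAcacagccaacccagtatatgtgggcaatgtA

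The 250 bases upstream of a transcript start of Hsd3b3 and of Hsd3b2 are shown because both genes were low at 18 h. Those of Nr0b2 are shown too, as its window held the core of the Nr5a2 site (CAAGGNC, searched on both strands). Capitals mark that core. The sequences are from RefSeq (GRCm38.p6), on the strand of the gene, at chr3:98763129-98763378 (minus), chr3:98724544-98724793 (minus) and chr4:133553126-133553375 (plus). The Hsd3b3 window lies inside the span of the gene given above, so it precedes an inner start and not the outermost end.
Hsd3b3 promoter: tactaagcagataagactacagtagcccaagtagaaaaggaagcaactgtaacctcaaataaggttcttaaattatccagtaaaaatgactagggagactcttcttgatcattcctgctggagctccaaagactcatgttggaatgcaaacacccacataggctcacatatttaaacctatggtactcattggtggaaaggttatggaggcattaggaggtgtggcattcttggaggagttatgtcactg
Hsd3b2 promoter: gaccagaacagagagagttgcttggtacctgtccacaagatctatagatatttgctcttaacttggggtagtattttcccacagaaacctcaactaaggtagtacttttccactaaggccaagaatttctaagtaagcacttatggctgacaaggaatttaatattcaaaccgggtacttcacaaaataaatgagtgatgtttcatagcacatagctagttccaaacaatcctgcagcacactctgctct
Nr0b2 promoter: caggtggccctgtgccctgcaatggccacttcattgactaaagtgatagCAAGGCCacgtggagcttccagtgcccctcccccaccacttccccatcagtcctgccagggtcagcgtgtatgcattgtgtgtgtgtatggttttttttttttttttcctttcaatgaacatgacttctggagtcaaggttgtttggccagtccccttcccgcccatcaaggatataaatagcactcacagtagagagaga

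In windows of 300 bases (250 before to 50 after each start), the Nr5a2 core was found in 17.8% of 32851 promoters. Among the members with a window in the RefSeq table it was found in that of Nr0b2, 201 bases before the start, and not in those of Hsd3b3, Hsd3b2, Cyp11a1 or Nr5a2. Both Hsd3b3 windows lie inside the gene span, so the bases before its outermost end were not searched. The Nr0b2 window also held TATAAA at 28 bases before the start (13.6% of all promoters held it, 1 of the Nr5a2 windows among them) and the palindrome TTCNNNGAA at 91 bases before it (8.3% of all promoters). The glucocorticoid receptor half-site AGAACA, found in 19.0% of all promoters, occurred in the Hsd3b2 window 246 bases before the start and in both Nr5a2 windows, and was not found in those of Hsd3b3, Nr0b2 or Cyp11a1. A match is a run of letters in a window, and neither a match nor its absence was tested for binding.

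The libraries held from 8887861 to 32722293 counts, and control replicate 3 was the smallest, with a floor of 3 counts that equals 7.13 normalised counts against 1.76 to 4.14 in the other 8. A normalised count is the read count divided by a factor for the depth of its library. The summed level of 8 epithelial markers was 113374 to 136676 in control, 119650 to 136301 in 18h-αGal and 97796 to 122782 in 72h-αGal libraries, and that of 9 T and NK cell markers was 38.0 to 54.0, 30.4 to 57.5 and 5.89 to 154. Summed stem cell markers were 45021 to 86239 in control, 13065 to 41461 in 18h-αGal and 58153 to 90512 in 72h-αGal libraries, with 1 of 8 called lower at 18 h. All 8 had a negative log2 fold change at 18 h (median -1.23), and 5 lay below control without overlap, as did 12.3% of all genes. Summed enterocyte markers overlapped between control (128405 to 346512) and 18h-αGal (180573 to 292592), with 1 of 14 called lower. Tuft cell markers summed to 3290 to 5627 in control and 5740 to 11150 in 18h-αGal libraries, with 2 of 8 tested called higher. Enteroendocrine markers summed to 9521 to 12491 in control and 13741 to 21890 in 18h-αGal libraries, with 4 of 10 called higher. Over all genes tested, 2.69% were called lower and 3.27% higher at 18 h. The median log2 fold change at 18 h was -0.0 for the enterocyte, 0.9 for the tuft and 0.63 for the enteroendocrine markers. In bulk RNA, fewer cells of a type and less RNA per cell cannot be told apart, and the part of these shifts in the results below was not tested.

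Hsd3b3 was well detected in each control mouse, nearly gone at 18 h and back within the control range in 1 of the 3 mice at 72 h. Its normalised counts were 213, 165 and 283 in control, 7.57, 14.4 and 19.3 in 18h-αGal and 116, 183 and 90.5 in 72h-αGal replicates 1, 2 and 3. The highest 18h-αGal value lay far below the lowest control value, whereas 72h-αGal and control overlapped. The group means were 220 ± 59.2 (SD, n = 3), 13.8 ± 5.9 and 130 ± 47.5, so that 18h-αGal stood at 6.24% and 72h-αGal at 58.8% of the control mean. The log2 fold change was -4.04 ± 0.44 (standard error) at 18 h, 16.4-fold lower, and 3.29 ± 0.43 from 18 h to 72 h. As Hsd3b3 was chosen for its low level at 18 h, both are given as a description with no test. Between 72h-αGal and control, a contrast that did not choose the gene, the log2 fold change was -0.74 ± 0.37 and did not pass the threshold (edgeR quasi-likelihood test, Benjamini-Hochberg adjusted p = 0.856).

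Hsd3b2, which encodes the same enzyme activity, followed the same course at a lower level. Its normalised counts were 25.3, 57.9 and 40.4 in control, 2.52, 1.8 and 1.38 in 18h-αGal and 23.2, 17.1 and 25.0 in 72h-αGal replicates 1, 2 and 3. The 18h-αGal libraries rested on 4, 2 and 1 reads, the lowest of any group, and neither treated group overlapped the control group. Hsd3b2 fell at 18 h by 4.3 ± 0.84 on the log2 scale (edgeR adjusted p = 0.008, and 9.31e-05 to 0.0432 over 18 alternatives, which reuse the same reads). It was chosen with earlier results of these data known, so its p-values are not independent of that choice. It passed the filter on low counts through its control and 72h-αGal reads. The 18h-αGal mean was 4.61% of the control mean. After scaling for depth, the reads summed over 3 libraries stood at 5.37% of control with a 95% counting interval of 2.11% to 11.4%. Hsd3b2 rose from 18 h to 72 h by 3.4 ± 0.82 (edgeR adjusted p = 0.0173), a call that was lost without 18h-αGal replicate 2 or without 72h-αGal replicate 3 (adjusted p up to 0.0627). At 72 h the difference from control was -0.9 ± 0.7 on the log2 scale (edgeR adjusted p = 0.904). The 72h-αGal mean was 52.9% of the control mean, and the summed reads, scaled for depth, stood at 58.0% of control (42.6% to 78.4%). These intervals cover counting error only.

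The share of Hsd3b2 within the pair had overlapping intervals in the 3 groups. Hsd3b2 gave 15.6% of the reads of both genes in control (121 of 777, 95% Wilson interval 13.2% to 18.3%), 14.3% in 18h-αGal (7 of 49, 7.1% to 26.7%) and 14.9% in 72h-αGal (71 of 475, 12.0% to 18.4%). These intervals pool the reads of 3 mice and cover counting error only, not the spread between mice. Single libraries ranged from 6.67% to 26.0%. The intervals of control replicate 1 (7.96% to 14.0%) and control replicate 2 (20.8% to 31.9%) did not overlap. Of the 50-base words in annotated Hsd3b2 transcripts, 26.1% also occurred in transcripts of other genes and 11.0% in Hsd3b3, while for Hsd3b3 6.25% were shared and 5.93% occurred in Hsd3b2, so that the split of reads between the genes is uncertain to that extent. Both genes overlap Zfp697 on the opposite strand, and the strand setting of the counting is not given in the sources used here. Zfp697 itself held 33.5, 68.3 and 23.8 normalised counts in control and 44.8, 44.9 and 33.1 in 18h-αGal libraries, a log2 fold change of -0.04 ± 0.51 (edgeR adjusted p = 0.976).

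**Figure D1:**
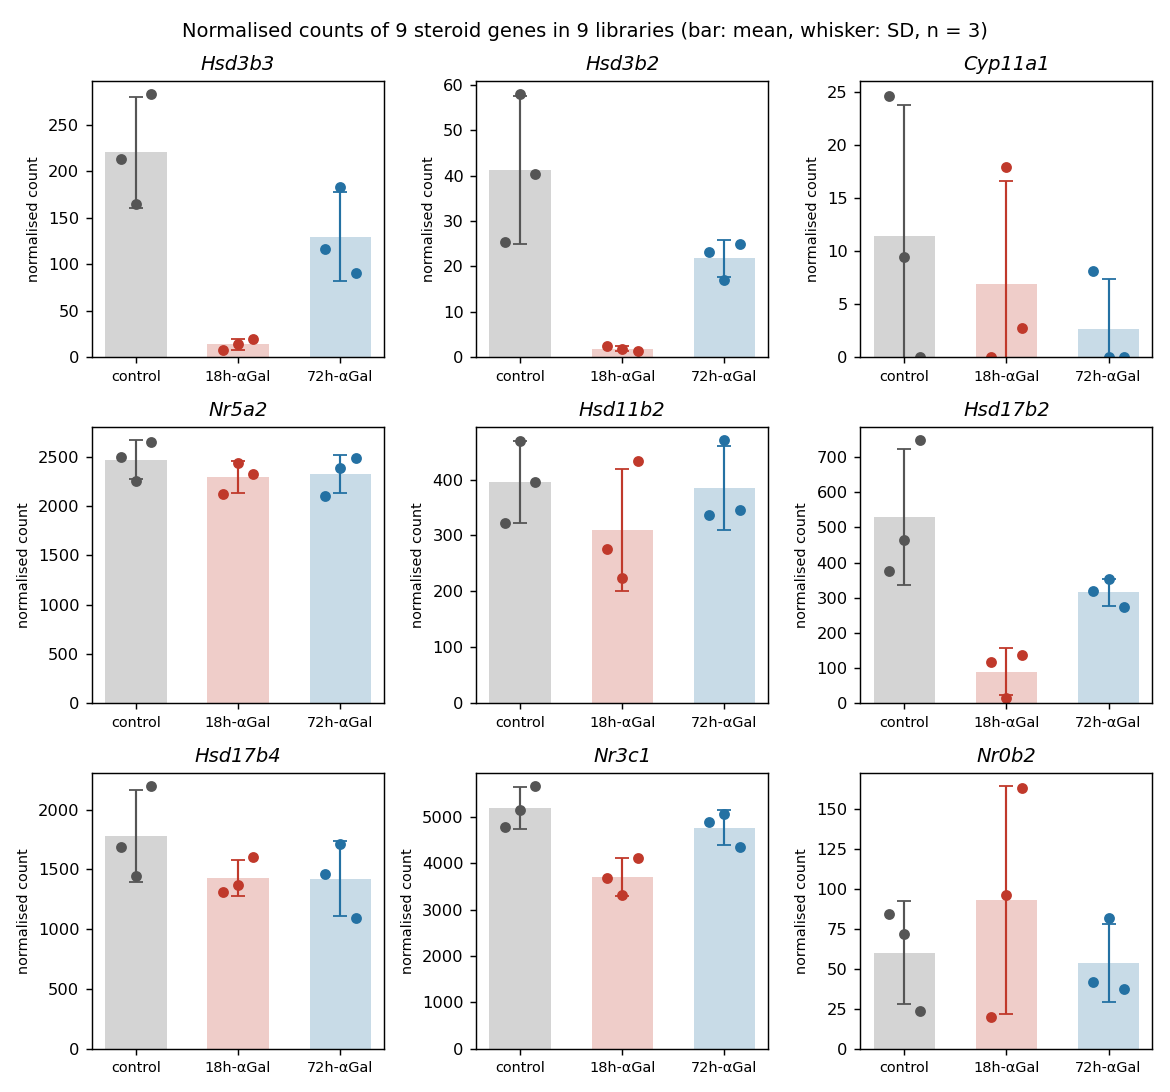
Normalised counts (vertical axes, from 0, on a scale of their own for each gene) of the 9 members in the 3 groups; points are libraries, bars are means and whiskers are SDs over 3 mice. Hsd3b3 and Hsd3b2 in 18h-αGal lie near 0, below every control and 72h-αGal library, while Nr5a2 is level across the groups.

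Cyp11a1, the first enzyme of the pathway, was near the limit of detection. It had 42, 10 and 0 reads in control, 0, 20 and 2 in 18h-αGal and 7, 0 and 0 in 72h-αGal replicates 1, 2 and 3. Each group held at least 1 library with no read, which allows up to 3 counts, so the groups overlapped and no order could be read from them. The log2 fold changes were -0.78 ± 1.71 at 18 h (edgeR adjusted p = 0.854) and -2.18 ± 1.84 at 72 h against control (adjusted p = 0.913), with standard errors that span several-fold changes in either direction. Cyp11a1 also overlaps a predicted gene, Gm17322, on its own strand.

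The enzymes that inactivate steroids were more abundant per length than Hsd3b3, Hsd3b2 and Cyp11a1. Hsd17b2, which oxidises estradiol and testosterone, had 377, 465 and 749 normalised counts in control, 117, 13.5 and 137 in 18h-αGal and 319, 352 and 274 in 72h-αGal replicates 1, 2 and 3. Each 18h-αGal library lay below each control library, and 18h-αGal replicate 2 was far below the other two. The 18h-αGal mean was 16.8% and the 72h-αGal mean 59.4% of control. The log2 fold change at 18 h was -2.57 ± 0.66 and missed the threshold (edgeR adjusted p = 0.0611), though 5 of 18 alternatives called it, DESeq2, limma-trend and the fit without 18h-αGal replicate 2 among them (adjusted p from 0.0037 to 0.14). From 18 h to 72 h the difference was 1.84 ± 0.64 (edgeR adjusted p = 0.121), called in 3 of 18 alternatives, and at 72 h it was -0.72 ± 0.61 against control (adjusted p = 0.919) although the groups did not overlap.

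Hsd11b2, which shields the mineralocorticoid receptor by oxidising corticosterone, had 322, 469 and 395 normalised counts in control, 276, 223 and 433 in 18h-αGal and 337, 471 and 346 in 72h-αGal replicates. All 3 groups overlapped. Its log2 fold change was -0.35 ± 0.26 at 18 h (edgeR adjusted p = 0.489) and -0.02 ± 0.25 at 72 h against control (adjusted p = 0.999). Hsd17b4 had 1687, 1446 and 2199 normalised counts in control, 1315, 1370 and 1603 in 18h-αGal and 1462, 1716 and 1091 in 72h-αGal replicates. These overlapped too, with a log2 fold change of -0.3 ± 0.17 in both contrasts with control (edgeR adjusted p = 0.353 at 18 h and 0.879 at 72 h).

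**Figure D2:**
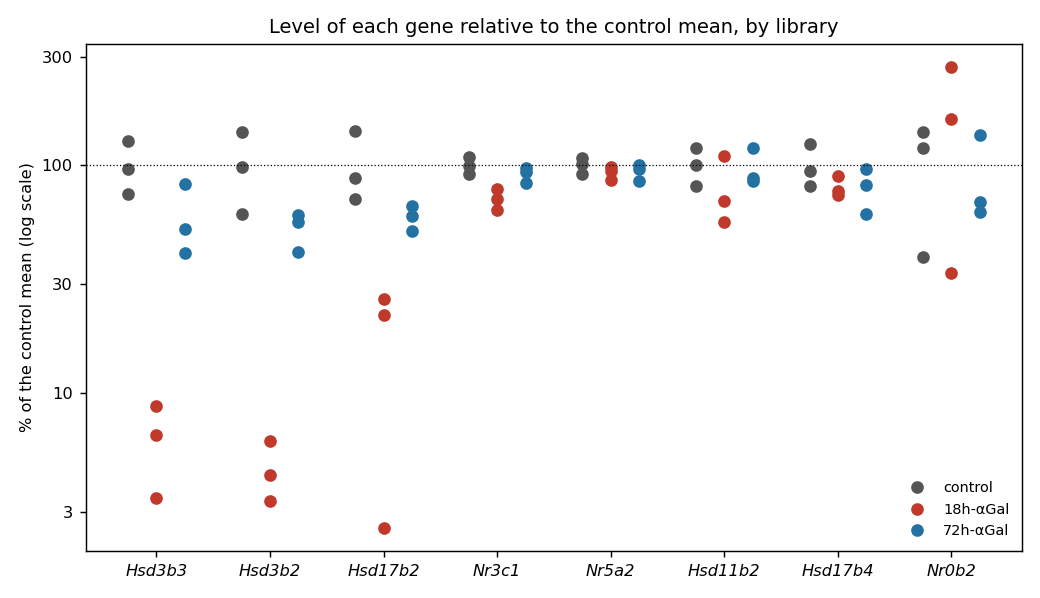
Level of 8 members in each library as a percentage of the control mean (vertical axis, log scale); each point is a library and colours are groups, and Cyp11a1 is left out because 4 of its libraries hold no read. The 18h-αGal points of Hsd3b3, Hsd3b2 and Hsd17b2 lie far under 100%, those of Nr3c1 a little under it, and those of the other 4 overlap the control points.

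Neither Nr5a2 nor Nr0b2, the transcription factors of the pathway, passed the test in any contrast. Nr5a2 had 2501, 2259 and 2656 normalised counts in control, 2125, 2439 and 2329 in 18h-αGal and 2106, 2384 and 2486 in 72h-αGal replicates. The groups overlapped, and with a log2 fold change of -0.1 ± 0.11 at 18 h (edgeR adjusted p = 0.7) and -0.07 ± 0.11 at 72 h (adjusted p = 0.97) it was measured with the smallest standard errors among the members, together with Nr3c1. Nr0b2, both a target and a corepressor of Nr5a2, had 84.6, 72.1 and 23.8 normalised counts in control, 20.2, 96.1 and 163 in 18h-αGal and 41.7, 81.7 and 37.5 in 72h-αGal replicates. It varied widely within each group, and its log2 fold change of 0.57 ± 0.64 at 18 h did not pass the threshold (edgeR adjusted p = 0.683).

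Nr3c1 was the most abundant member per length and fell modestly at 18 h. It had 4782, 5144 and 5677 normalised counts in control, 3696, 3314 and 4114 in 18h-αGal and 4886, 5078 and 4351 in 72h-αGal replicates. The 18h-αGal group lay below both other groups without overlap, and 72h-αGal overlapped control. Its level was 71.3% of the control mean at 18 h, a log2 fold change of -0.48 ± 0.11 (edgeR adjusted p = 0.0222, and 0.00863 to 0.125 over the alternatives). The call was lost in 6 of 18 alternatives, namely without control replicate 1 or 2, without 18h-αGal replicate 1 or 2, with only the groups compared in the fit and with the replicate number as a block. From 18 h to 72 h the difference was 0.37 ± 0.11 and just missed the threshold (edgeR adjusted p = 0.0511), which 6 alternatives passed. At 72 h it stood at 91.7% of the control mean (-0.11 ± 0.11, adjusted p = 0.946).

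**Figure D3:**
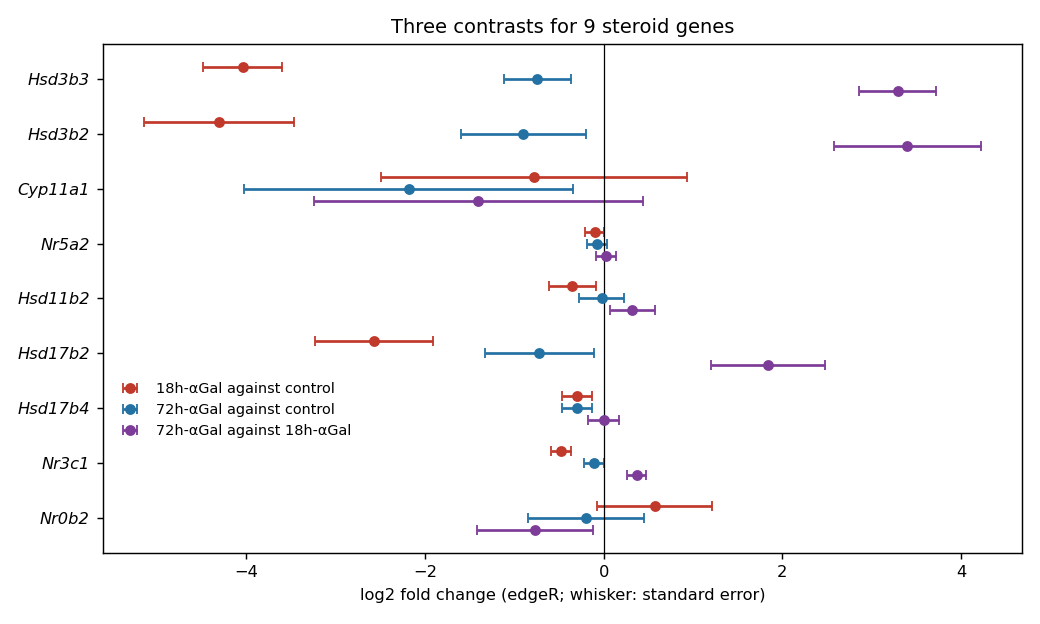
Fitted log2 fold change (horizontal axis) of the 9 members in the 3 contrasts, given by colour; whiskers are standard errors of the edgeR fit. The Hsd3b genes lie near -4 at 18 h against control and beyond 3 from 18 h to 72 h, Hsd17b2 lies between them and 0, and the whiskers of Cyp11a1 are the widest.

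Across the members, 3 of 9 were called lower at 18 h and none higher. Over all genes tested, 5.96% were called in that contrast, 2.69% lower and 3.27% higher. Hsd3b3 was chosen for its low level at 18 h, so only the calls of Hsd3b2 and Nr3c1 come with a test. All members were chosen with earlier results of these data known, so neither call is independent of that choice. Hsd3b2 also shares sequence with Hsd3b3, so its call is not independent of the chosen gene. Of the 9, 4 lay below control without overlap (Hsd3b3, Hsd3b2, Hsd17b2 and Nr3c1), against 12.3% of all genes. Hsd3b3 is among these 4 because it was chosen for its low level at 18 h. At 72 h against control 0 of 9 were called by edgeR, 0 by DESeq2 and 0 at an unadjusted p under 0.05, where 0.0264% of all genes were called and 5.94% had an unadjusted p under 0.05. The 5 genes called in that contrast (Chga, Chgb, Neurod1, Tph1 and Tac1, named after their values were seen) were all on the list of enteroendocrine cell markers and lower at 72 h. Hsd3b2 and Hsd17b2 lay below control without overlap at 72 h, as did 6.3% of all genes. From 18 h to 72 h, 2 of 9 were called higher (Hsd3b3, not tested for the reason above, and Hsd3b2) where 10.2% of all genes were called and 4.18% were called higher, and 4 of 9 lay higher without overlap, against 16.6% of all genes. Hsd3b3 is also among those 4. The median log2 fold change of the members was -0.48 at 18 h, -0.3 at 72 h and 0.32 from 18 h to 72 h, beside -0.03, 0.0 and 0.05 over all genes tested. These medians include Hsd3b3, so those with the 18h-αGal group are a description. The comparisons at 18 h and 72 h share the control mice.

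Per kilobase of annotated exon, the order of the mean levels in control was Nr3c1 (660 normalised counts per kilobase), Hsd17b4 (334), Nr5a2 (286), Hsd11b2 (213), Hsd17b2 (210), Hsd3b3 (32.7), Nr0b2 (28.0), Hsd3b2 (11.1) and Cyp11a1 (1.76). Neighbours whose library ranges overlapped were Hsd17b4 and Nr5a2, Hsd11b2 and Hsd17b2, Hsd3b3 and Nr0b2, and Nr0b2 and Hsd3b2. At 18 h Hsd17b2 (35.2 per kilobase) and Hsd3b3 (2.04) came after Nr0b2 (43.3), and the range of Hsd3b3 overlapped that of Cyp11a1 (1.07), itself followed by Hsd3b2 (0.514). At 72 h Hsd3b3 (19.3) again came before Hsd3b2 (5.89) and Cyp11a1 (0.418), after Nr0b2 (24.9), whose range it overlapped. The exon lengths join all annotated transcripts of a gene, so a gene with long rare transcripts is set too low.

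Among 12648 genes with a mean of at least 50 normalised counts, the levels most like those of Hsd3b3 over the 9 libraries were those of Rreb1 (Pearson r = 0.977), Mep1a (0.977), Slc20a1 (0.969), Fchsd2 (0.966) and Arid1b (0.965). Mep1a encodes meprin A, a brush border protease and 1 of the enterocyte markers, and was the enterocyte marker called lower at 18 h. It had 973, 698 and 704 normalised counts in control, 120, 120 and 174 in 18h-αGal and 453, 582 and 469 in 72h-αGal replicates, the same order of groups as Hsd3b3. For Cyp11a1 the closest were Eif2b1 (0.935), Drosha (0.888), Dym (0.868), Zfp251 (0.852) and Pex6 (0.839), which rest on the few libraries in which Cyp11a1 had reads. The libraries share their groups and depth in every such correlation, so these are descriptions.

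The rest of the pathway was read from 7 lists with 129 genes, of which 113 were in the table and all but 12 of these passed the filter on low counts and were tested. At 18 h 5 were called higher and 12 lower by edgeR, where 3.27% and 2.69% of all genes were. At 72 h against control 0 were called by edgeR and 0 by DESeq2, with 12 at an unadjusted p under 0.05 (5.94% of all genes). From 18 h to 72 h 10 were called higher and 16 lower, where 4.18% and 6.04% of all genes were. The median log2 fold change was -0.06, -0.11 and 0.04 in these contrasts. None of the 7 other 3-beta-hydroxysteroid dehydrogenases was analysed here.

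Of the genes that deliver cholesterol, hydroxylate steroids or pass electrons to those hydroxylases, 0 of 20 were called at 18 h by edgeR, with 1 at an unadjusted p under 0.05 (20.8% of all genes) and a median log2 fold change of 0.04. Star, which carries cholesterol into the mitochondrion, had 238, 334 and 195 normalised counts in control, 137, 127 and 143 in 18h-αGal and 246, 240 and 317 in 72h-αGal replicates. Each 18h-αGal library lay below all others, and Star rose from 18 h to 72 h by 0.99 ± 0.26 on the log2 scale (edgeR adjusted p = 0.0247), a call lost in 5 of 18 alternatives, 4 of them without 1 library (18h-αGal replicate 1 or 2, or 72h-αGal replicate 1 or 3). The lipase Lipe (-0.74 ± 0.2, adjusted p = 0.0272) and the lipoprotein receptor Scarb1 (-0.89 ± 0.26, adjusted p = 0.0433) fell over the same interval by edgeR, the first lost without 18h-αGal replicate 2 or 3 or 72h-αGal replicate 1 or 3, and the second lost in 8 of 18 alternatives, those without control replicate 1 and without the same 4 libraries among them. Of the 8 other 17-beta-hydroxysteroid dehydrogenases 0 were called at 18 h by edgeR (2 at an unadjusted p under 0.05), and Hsd17b12, which also elongates fatty acids, fell from 18 h to 72 h by 0.68 ± 0.13 on the log2 scale (adjusted p = 0.00535).

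Genes listed for steroid reduction, conjugation and clearance were called lower at 18 h in 6 of 17 cases (2.69% of all genes were called lower) and higher in 0, with a median log2 fold change of -0.71. The genes were listed by name, and whether their fall bears on steroids in particular was not tested. Ugt2b5, a glucuronosyltransferase, had 546, 319 and 316 normalised counts in control, 64.3, 50.3 and 80.0 in 18h-αGal and 270, 262 and 201 in 72h-αGal replicates. It fell by 2.61 ± 0.3 at 18 h on the log2 scale (edgeR adjusted p = 0.000175) and rose by 1.93 ± 0.29 afterwards (adjusted p = 0.00123). Abcb1a, the efflux pump P-glycoprotein, had 1444, 1231 and 2534 in control, 425, 360 and 479 in 18h-αGal and 1260, 1705 and 924 normalised counts in 72h-αGal replicates. It fell by 2.03 ± 0.29 (edgeR adjusted p = 0.00268) and rose by 1.63 ± 0.28 (adjusted p = 0.00539). Ugt2b36 fell by 2.19 ± 0.42 (edgeR adjusted p = 0.0067) and rose by 1.58 ± 0.41 (adjusted p = 0.0242, not called without 18h-αGal replicate 1 or 3 or any 72h-αGal library), and the reductase Akr1c14 fell by 1.17 ± 0.28 (adjusted p = 0.0216), a call lost with only the groups compared, without control replicate 1 or without 18h-αGal replicate 2. Reads of the Ugt2b genes may be split among near-identical paralogs. The sulfotransferase Sult2b1 fell from 18 h to 72 h by 1.59 ± 0.41 (edgeR adjusted p = 0.0435), a call lost in 10 of 18 alternatives, among them those without control replicate 1 or without any 18h-αGal or 72h-αGal library.

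**Figure D4:**
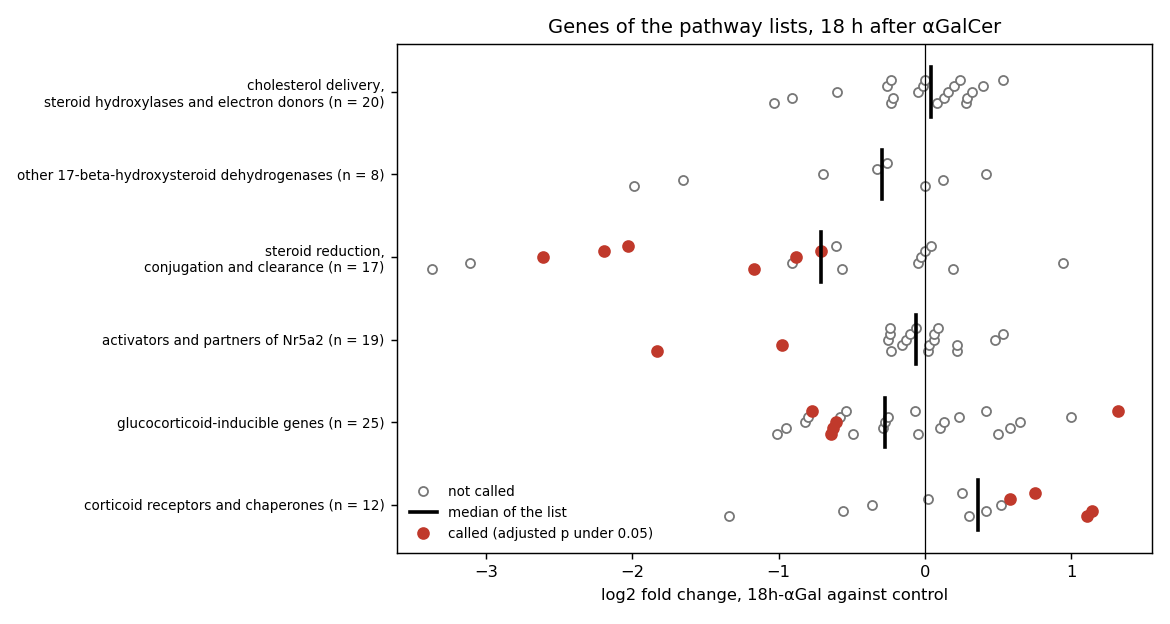
Log2 fold change at 18 h against control (horizontal axis) of each tested gene of 6 pathway lists (rows, with the number tested); filled points passed an adjusted p of 0.05 in the edgeR fit and the bar is the median of the list. The list of reduction, conjugation and clearance lies lowest with 6 filled points, all below 0, and the receptors and chaperones lie highest with 4 filled points, all above 0.

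Of 19 genes listed as activators or partners of Nr5a2, corepressors included, 2 were called lower (2.69% of all genes were) and 0 higher at 18 h, with a median log2 fold change of -0.06. Those called lower were Nr4a1 and Nr1h4, and neither was tested here as an activator of Nr5a2. Nr4a1, an orphan nuclear receptor induced as an immediate early gene, had 3456, 4511 and 2201 normalised counts in control, 1008, 1045 and 806 in 18h-αGal and 3634, 2935 and 3875 in 72h-αGal replicates. It fell by 1.83 ± 0.23 at 18 h (edgeR adjusted p = 0.00156) and rose by 1.87 ± 0.23 to 72 h (adjusted p = 0.00102). The bile acid receptor Nr1h4, which drives Nr0b2, fell by 0.98 ± 0.26 (edgeR adjusted p = 0.04), a call lost in 6 of 18 alternatives. The libraries whose absence ended this call were control replicates 1 and 3, 18h-αGal replicates 1 and 2 and 72h-αGal replicate 1. From 18 h to 72 h Prox1, a corepressor of Nr5a2 (-0.9 ± 0.23, edgeR adjusted p = 0.0218), and Hnf4g (-0.68 ± 0.19, adjusted p = 0.043) fell. Both calls were lost in some alternatives. Prox1 was not called in 5 of 18, those without 18h-αGal replicate 2 or 3 or any 72h-αGal library. Hnf4g was not called in 9 of 18. These were upper-quartile scaling, no filter on low counts, and the fits without control replicate 1 or any αGalCer library.

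Of 25 genes that glucocorticoids are known to induce, 1 was called higher and 4 lower at 18 h, beside 3.27% and 2.69% of all genes, with a median log2 fold change of -0.27. Fkbp5, which encodes a chaperone partner that dampens the receptor, had 385, 487 and 376 normalised counts in control, 840, 1118 and 1152 in 18h-αGal and 249, 289 and 589 in 72h-αGal replicates. It rose by 1.32 ± 0.28 at 18 h (edgeR adjusted p = 0.0166), a call lost without control replicate 1 or without 18h-αGal replicate 2, and fell by 1.44 ± 0.28 to 72 h (adjusted p = 0.00696). The phosphatase Dusp1 went the other way, with 2413, 2738 and 2235 normalised counts in control, 1658, 1366 and 1682 in 18h-αGal and 2763, 2813 and 2680 in 72h-αGal replicates. Dusp1 fell by 0.64 ± 0.12 (edgeR adjusted p = 0.00628) and rose by 0.82 ± 0.12 (adjusted p = 0.00111). The EGF receptor inhibitor Errfi1 (-0.61 ± 0.12, edgeR adjusted p = 0.00716), the clock gene Per1 (-0.77 ± 0.18, adjusted p = 0.0186) and the transcription factor Klf9 (-0.63 ± 0.16, adjusted p = 0.028) fell at 18 h. Per1 was not called without control replicate 1 or 2, and Klf9 not called in 6 of 18 alternatives, namely with only the groups compared and without any of control replicates 1 and 2 or the 3 18h-αGal libraries. Errfi1, Per1 and Klf9 rose again from 18 h to 72 h by 0.5 ± 0.12, 0.69 ± 0.18 and 0.97 ± 0.16 (edgeR adjusted p = 0.0137, 0.0223 and 0.00183), Errfi1 not without 18h-αGal replicate 2 or 72h-αGal replicate 2 or 3 and Per1 not without 18h-αGal replicate 3 or 72h-αGal replicate 1 or 3, while the cell cycle inhibitor Cdkn1a fell by 1.16 ± 0.19 (adjusted p = 0.00214).

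Of the 12 corticoid receptor and chaperone genes other than Nr3c1, 4 were called higher (3.27% of all genes were) and 0 lower at 18 h, with a median log2 fold change of 0.36, and 0 were called higher and 6 lower from 18 h to 72 h, where 6.04% of all genes were called lower. The 4 that rose encode the chaperone machinery that holds the receptor ready for ligand. Hsp90aa1 had 7514, 8527 and 10111 normalised counts in control, 16041, 21923 and 18099 in 18h-αGal and 6566, 6946 and 6026 in 72h-αGal replicates, and rose by 1.11 ± 0.13 on the log2 scale (edgeR adjusted p = 0.000298). Its co-chaperones Stip1 (1.14 ± 0.16, adjusted p = 0.00106), Ptges3 (0.75 ± 0.13, adjusted p = 0.00303) and Fkbp4 (0.58 ± 0.12, adjusted p = 0.0126) rose with it by edgeR, and Fkbp4 was not called without 18h-αGal replicate 2. All 4 fell from 18 h to 72 h, by 1.51 ± 0.14, 1.19 ± 0.16, 0.82 ± 0.13 and 0.65 ± 0.12 (edgeR adjusted p = 3.76e-05, 0.000517, 0.00132 and 0.00439), as did Hspa8, by 0.59 ± 0.1 (adjusted p = 0.00234). These chaperones serve many client proteins besides the receptor.

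**Figure D5:**
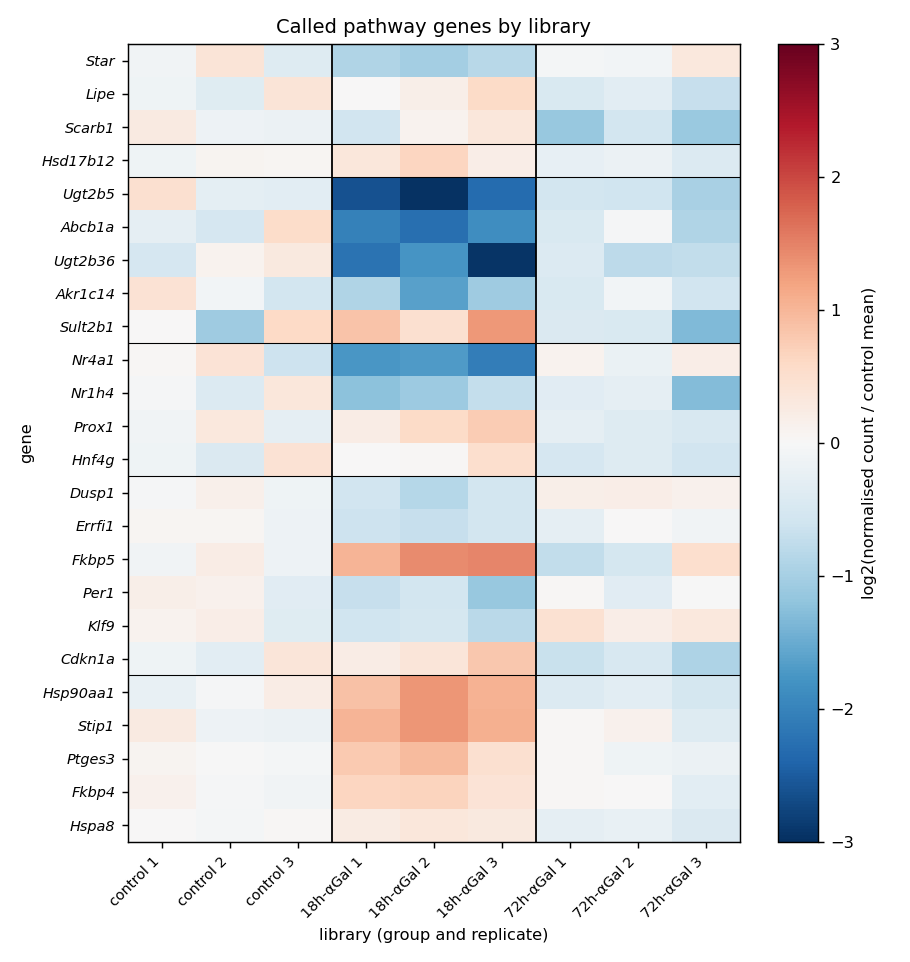
Log2 ratio of the normalised count to the control mean (colour, red above and blue below) for 24 pathway genes (rows, grouped by list) called in at least 1 contrast, in the 9 libraries (columns). Ugt2b5, Abcb1a, Ugt2b36 and Nr4a1 are the deepest blue in all 3 18h-αGal libraries, and Hsp90aa1, Stip1 and Fkbp5 are red in the same libraries.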

How the data were processed

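RNA was sequenced from sorted crypt epithelial cells of 9 mice, 3 in each of 3 groups taken from the labels. Per the labels, ribosomal RNA was depleted and directional libraries (NEBNext Ultra II) were read at 100 bases; processing tools listed there are HISAT2, featureCounts (Subread) and DESeq2 1.42.0. The labels list the mouse build GRCm38 (mm10), whereas the study's methods name GRCm39; positions are given on GRCm38.p6 from RefSeq. The authors deposited raw read counts per gene, and a normalised signal that equals the counts divided by DESeq2 size factors (largest relative difference 8.9e-16), called normalised counts here. Of 29288 gene identifiers, 28480 matched GENCODE vM39 (98.4% of counts), which gave symbols, overlaps and exon lengths, and 808 did not. Library totals ran from 8887861 to 32722293; a value of 0 allows up to 3 counts, a limit that covers counting error only.

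Counts were tested with edgeR 4.0.16 (R 4.3.3): filterByExpr, TMM scaling, 1 robust quasi-likelihood model with 3 groups over all 9 libraries (common dispersion 0.123) and Benjamini-Hochberg adjustment over 18933 genes, with a call at an adjusted p under 0.05. The procedure was tested on simulated data. Alternatives were DESeq2 1.42.0, limma-trend (limma 3.58.1, prior count 2), other scalings, other filters, no robust option, only the groups compared, the replicate number as a block, a log2 fold change of at least 1 and leaving out each library.

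The members and lists were chosen with earlier results of these data known, and 1 gene of the lists is not reported here. Named genes are every member, up to 4 called genes with the smallest p for each list and contrast, and the 5 genes most correlated with Hsd3b3 and with Cyp11a1 on log2(normalised count + 1); Zfp697 was added as the gene that overlaps the Hsd3b pair. The p-values set a difference between group means against the spread between mice within groups, estimated in 1 fit of the 3 groups. Replicates of a group differed by more than counting error (chi-square per degree of freedom 13.1 to 42). Control and treated mice with the same number were not described as a pair.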

Additional observations from a re-analysis of the deposited data

Results flagged for a closer look

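For 23 of the members and pathway list genes named in the text, Hsd3b3 left out, the differences from control at 18 h and at 72 h were unlike. The test was that of the difference itself, the 72h-αGal against 18h-αGal contrast of the edgeR fit (adjusted p under 0.05). In this contrast 10.2% of all genes were called. Among the members the gene was Hsd3b2, with a log2 difference of 3.4. Of 26 list genes called in this contrast (10 higher and 16 lower), only those named by rule are given. The named ones higher at 72 h than at 18 h were Star (0.99), Ugt2b5 (1.93), Abcb1a (1.63), Ugt2b36 (1.58), Nr4a1 (1.87), Dusp1 (0.82), Errfi1 (0.5), Per1 (0.69) and Klf9 (0.97). The named ones lower at 72 h were Lipe (-0.74), Scarb1 (-0.89), Hsd17b12 (-0.68), Sult2b1 (-1.59), Prox1 (-0.9), Hnf4g (-0.68), Fkbp5 (-1.44), Cdkn1a (-1.16), Hsp90aa1 (-1.51), Stip1 (-1.19), Ptges3 (-0.82), Fkbp4 (-0.65) and Hspa8 (-0.59). Each log2 difference compares 3 libraries with 3, and the differences from control at 18 h and 72 h share the control mice.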

How the results depend on the processing

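At 18 h 3 members were called lower, and between 2 and 4 in the alternatives: Hsd3b3 and Hsd3b2 in each, Nr3c1 in 12 of 18 and Hsd17b2 in 5 of 18; the 2 called higher from 18 h to 72 h ranged from 1 to 3 when single libraries were left out, with 1 (Hsd3b3) without 72h-αGal replicate 3. At 72 h against control 0 members and 0 list genes were called in each alternative. The 17 list genes called at 18 h ranged from 10 to 20 without single libraries (10 without control replicate 1 or 18h-αGal replicate 2) and were 8 with a log2 fold change of at least 1. The 26 called from 18 h to 72 h ranged from 14 to 35 (14 without 72h-αGal replicate 3, 17 without 72h-αGal replicate 1, 16 without 18h-αGal replicate 2) and were 9 with that fold. Same-numbered libraries did not deviate together (correlations -0.15 to 0.115), and with the replicate number as a block 2, 0 and 2 members and 16, 0 and 22 list genes were called in the 3 contrasts.

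Of the members, signs turned only in uncalled values: Cyp11a1 at 18 h with the replicate block (0.33), Hsd17b4 from 18 h to 72 h with DESeq2 size factors (-0.01), DESeq2 (-0.01) and limma-trend (-0.02). Leaving out single libraries moved the log2 difference of Hsd17b4 from 18 h to 72 h between -0.15 and 0.16, of Nr5a2 at 72 h between -0.13 and 0.0 and from 18 h to 72 h between -0.03 and 0.1, of Hsd11b2 at 72 h between -0.19 and 0.13, and of Nr0b2 at 18 h between -0.09 and 1.05 and at 72 h between -0.62 and 0.12. The cause was not tested. Depth limits Hsd3b2 at 18 h (7 reads in all) and Cyp11a1.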
